A study of Mus musculus with 12 samples.

Results

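The cytosolic ribosomal protein genes are the genes for the proteins that, with ribosomal RNA, build the large (60S) and small (40S) subunits of the ribosome in the cytosol. They were chosen by symbol: Rpl or Rps with a number and an optional a, x, y or l, plus Rplp0, Rplp1, Rplp2 and Rpsa, leaving out names with -ps and the S6 kinases, whose symbols also begin with Rps. The rule found 89 of the 56980 rows of the deposited gene table, 53 of the large and 36 of the small subunit. The rule reads symbols and no expression value, but the set was chosen with earlier results of these data known. Of the 89 genes, 83 were annotated as protein coding and 6 as pseudogenes (Rpl32l, Rpl6l, Rps12l1, Rps3a2, Rps3a3 and Rps4l), and they lay on 19 chromosomes, 4 of them on the X chromosome.

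Livers came from male B6.Cg-Lepob/J (ob/ob, Lep-/-) mice, which cannot make leptin and become obese. Of these, 6 mice ate a low protein diet (LPD, 5% of energy from protein) and 6 ate a standard protein diet (SPD, 25% of energy from protein) for 3 weeks from 8 weeks of age, with free access to food, and livers were taken at 11 weeks and profiled by bulk RNA sequencing. Both diets were given only to leptin-deficient males, so no lean or female liver enters any value here. Titles name LPD and SPD, and they set the groups, but 2 other labels of LPD replicate 1 name the standard protein content. Counts of called members, and some other results, are given with it counted as SPD too. Counts of members without overlap, summed CPM, paralog ratios and calls of some related lists are given for the titled groups only. Totals per library were 19404340 to 23681408 counts in LPD and 19374676 to 23710930 counts in SPD. Nothing in the labels separates livers by day or run, although library codes begin with LP4 or LP5 in LPD and with SP1 or SP2 in SPD.

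Each ribosome carries a single copy of nearly all of these proteins, the acidic stalk proteins being the known exception, so cells make them in step. In mammals most of their mRNAs begin with a C followed by a run of pyrimidines, the 5′ terminal oligopyrimidine (TOP) motif, through which mTORC1 and the RNA-binding protein LARP1 control their translation and stability. Ribosome production takes a large part of the resources of a growing cell and is known to follow amino acid supply. In liver these mRNAs belong to the abundant housekeeping messages of hepatocytes, beside the far more abundant mRNAs of secreted proteins.

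The first bases at the annotated starts are shown for 6 members. Rps6, Rps18, Rps27, Rpl28 and Rpl38 were picked because they carry the motif that this mRNA class is known for, and Rps27l lacks it there. They do not stand for the risen members, most of which lack it at the annotated start, as counted below. Windows run from 10 bases before the start to 19 after it, 5′ to 3′ on the gene's strand, from RefSeq on GRCm38.p6. Capitals mark the run of C and T that begins with a C at the annotated start. Rps6, Rps18 and Rps27 of the small subunit and Rpl28 of the large subunit were all higher in LPD, Rpl38 was not called, and Rps27l was the single member called lower.
Rps6, chr4:86857348-86857377, minus strand: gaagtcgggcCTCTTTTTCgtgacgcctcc
Rps18, chr17:33955646-33955675, minus strand: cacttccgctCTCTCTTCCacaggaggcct
Rps27, chr3:90213629-90213658, minus strand: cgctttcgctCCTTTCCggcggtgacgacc
Rpl28, chr7:4792955-4792984, plus strand: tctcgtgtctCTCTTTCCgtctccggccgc
Rpl38, chr11:114668570-114668599, plus strand: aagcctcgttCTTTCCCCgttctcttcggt
Rps27l, chr9:66946076-66946105, plus strand: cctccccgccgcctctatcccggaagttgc
The Rps6 run holds 9 bases, the Rps18 run 9, the Rps27 run 7, the Rpl28 run 8 and the Rpl38 run 8. At this start of Rps27l, 1 of the 2 that RefSeq gives, the first base is a G.

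Promoter windows were found in the RefSeq table for 64 of the 89 members. A C followed by 4 bases that are each C or T stood at an annotated start of 14 of these 64 (21.9%), and of 813 of the 27025 genes in the table (3.01%). Among the 51 members with a window that were higher in LPD, 12 had it, and the other 2 were Rpl38 and Rpl32l, which was too low to test. Starts are those of the annotation, and a start placed 1 base off gives no match, as at Rpl27a, where the run begins with T. Motifs were searched on both strands in the 300 bases around each start, and a gene counted if any of its windows held the motif. CCGGAA, a core bound by ETS factors, was found in 54.7% of the 64 members and 16.7% of the 27025 genes. GGGCGG, the GC box, was found in 60.9% of members and 38.2% of these genes, and AAGATGG, a core bound by YY1, in 15.6% and 7.28%. TATAAA was found in 12.5% of members and 15.7% of these genes, and CACGTG, the E-box, in 9.38% and 8.09%. TGATGCAA, a form of the amino acid response element, was found in 0 of the 64 members and in 1.03% of the 27025 genes. These matches describe letters in the windows and do not show that a factor binds there.

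Ribosomal protein mRNAs were higher in LPD livers than in SPD livers. In bulk liver, fewer cells of a type and less RNA per cell cannot be told apart, and mRNA levels do not measure the number of ribosomes. Of the 89 members, 82 had enough counts to test, and 69 of these rose, 1 fell and 12 were not called, by edgeR's quasi-likelihood test with a Benjamini-Hochberg adjusted p under 0.05 over all 13768 tested genes. Over all tested genes 20.7% were called higher and 19.2% lower, against 84.1% higher among the tested members. The changes were small: the median log2 fold change (LPD over SPD) of the 82 was 0.27, with quartiles at 0.19 and 0.35, beside a median of -0.00059 over all tested genes. Values were positive in 78 of 82 members. None of the called members changed by 1.5-fold or more, the largest being Rpl3 at 1.45-fold. With LPD replicate 1 counted as SPD, 32 members were called higher and the median was 0.21. The share of all tested genes called in that setting is not given here, for this or for later counts.

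Both subunits took part. In the large subunit 41 of 48 tested members rose and none fell, with a median log2 fold change of 0.25 and a range from -0.02 to 0.53. In the small subunit 28 of 34 rose and 1 fell, with a median of 0.30 and a range from -0.85 to 0.44. Among protein-coding members alone, 41 of 48 large and 28 of 32 small subunit genes rose, with medians of 0.25 and 0.31. With LPD replicate 1 counted as SPD, 19 large and 13 small subunit members were called higher. The diets did not overlap, with every LPD liver above every SPD liver in CPM (counts scaled by TMM to a common library total), for 30 of the 82 members, 16 large and 14 small. Over all tested genes 10.2% did so, against 36.6% of the tested members. No member had every LPD liver below every SPD liver, as 9.73% of all tested genes did.

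**Figure D1:**
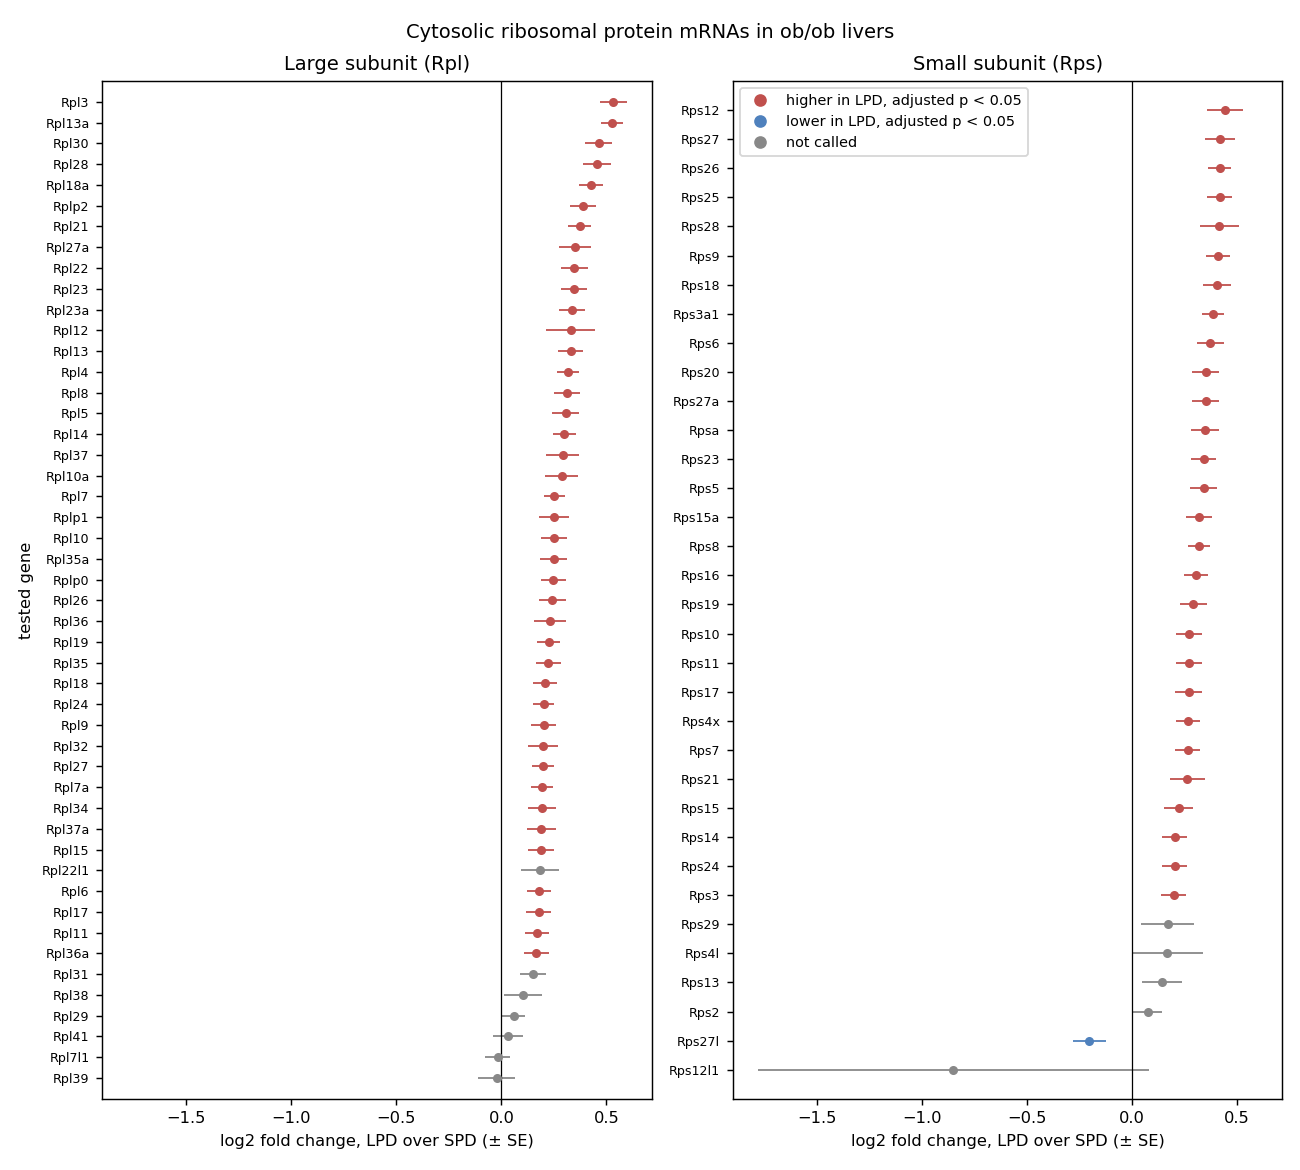
Log2 fold change (LPD over SPD, x axis) with its standard error for each of the 48 tested large subunit genes (left) and 34 tested small subunit genes (right), ordered by value, from 6 livers per diet. Red points were called higher, blue lower and grey not called. Most genes lie between 0.17 and 0.53, and Rps27l is the only blue point.

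In all livers together these mRNAs held a small share of the library, and it was larger in LPD. Members took 1.499% to 1.73% of the counts in LPD libraries (mean 1.62% ± 0.0927, SD, n = 6), against 1.23% to 1.40% in SPD libraries (1.29% ± 0.0771, SD, n = 6), and the diets did not overlap. The summed level was 15903 ± 862 CPM in LPD and 13176 ± 762 CPM in SPD (SD, n = 6 each), 1.21 times as high in LPD. Here the ranges nearly met without overlapping: the lowest LPD liver, replicate 6, had 14267 CPM, and the highest SPD liver, replicate 5, had 14265 CPM. The large subunit sum was 1.21 times and the small subunit sum 1.21 times as high in LPD. The ratio of large to small subunit counts was 1.36 ± 0.0147 in LPD and 1.36 ± 0.0132 in SPD (SD, n = 6 each), so the diets overlapped in the balance between subunits. No test was made of these sums, since they add up genes whose changes are already counted above.

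**Figure D2:**
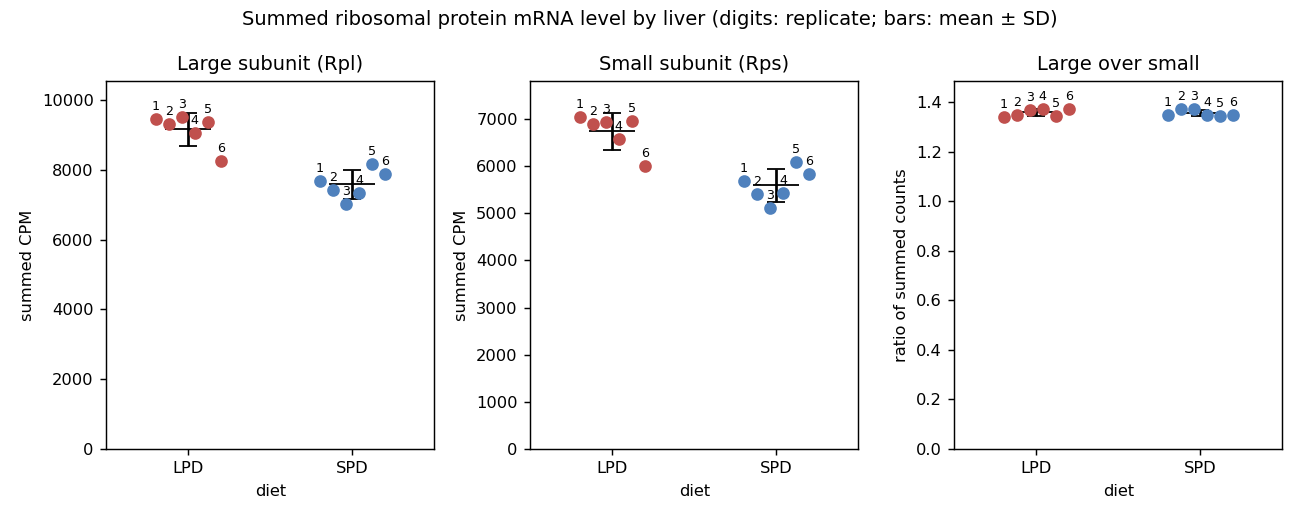
Summed CPM of the large subunit (left) and small subunit (middle) genes and the ratio of their counts (right) in each liver, by diet, with digits for the replicate and bars for mean ± SD. LPD livers reach 14267 to 16520 CPM over both subunits and SPD livers 12133 to 14265 CPM, while the ratio stays near 1.36 in both diets.

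A share of counts also depends on the most abundant genes, which moved with diet. The 10 genes with most counts, picked in each library on its own, held 16.1% ± 0.747 of an LPD library and 22.1% ± 0.961 of an SPD library (SD, n = 6 each). Genes of the mitochondrial genome held 5.21% ± 0.287 in LPD and 6.16% ± 0.430 in SPD. With each library's own 10 most abundant genes left out, members held 1.93% ± 0.113 in LPD and 1.66% ± 0.1005 in SPD, a ratio of 1.16. The diets then overlapped at LPD replicate 6 (1.76%) and SPD replicates 5 (1.79%) and 6 (1.78%). The fold changes use TMM scaling, which limits the weight of such genes. With factors estimated without the members 69 members were called higher. That setting removes only the members' own weight in the scaling and does not bear on the most abundant genes.

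The genes moved together from liver to liver as well as between diets. LPD replicate 6 had the lowest CPM of its diet in 65 of the 82 tested members and the highest in 1, and its median deviation from the SPD mean was 0.14 on the log2(CPM + 1) scale, against 0.25 to 0.32 in the other 5 LPD livers. SPD replicate 5 had the highest CPM of its diet in 48 members and SPD replicate 6 in 26, while SPD replicate 3 was lowest in 50. LPD replicate 1, the liver with conflicting labels, was highest of its diet in 23 members and held the largest share of all 12 libraries, 1.73%. By library code the share was 1.57% to 1.73% in the 4 LP4 libraries, 1.499% to 1.54% in the 2 LP5 libraries, 1.23% to 1.27% in the 4 SP1 libraries and 1.38% to 1.40% in the 2 SP2 libraries. Within the SP1 and LP4 libraries alone 68 members were called higher, with a median log2 fold change of 0.34. The LP5 and SP2 libraries, 2 per diet, were not compared on their own.

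**Figure D3:**
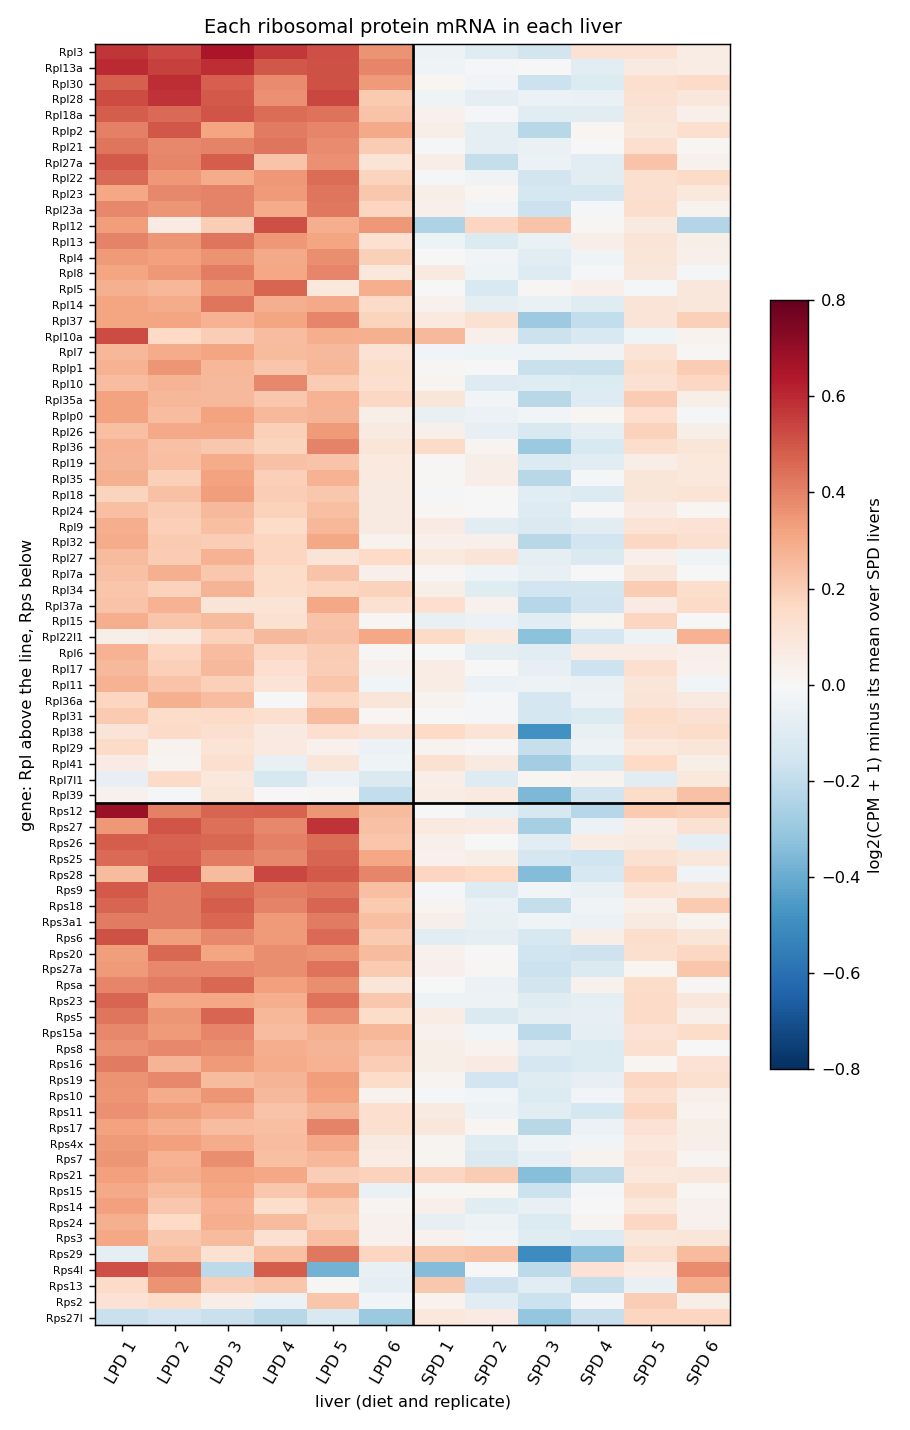
Level of each tested gene in each liver, as log2(CPM + 1) minus the gene's mean over the 6 SPD livers (colour), with LPD livers left and SPD livers right and large subunit genes above the line. Rps12l1 is left out for its low level. LPD replicate 6 is paler than the other LPD livers, and SPD replicate 3 is lowest in genes such as Rpl38, Rpl39 and Rps29.

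In the large subunit the highest fold belonged to Rpl3 (chr15:80077791-80091868, minus strand, GRCm38), which reaches towards the peptidyl transferase centre where peptide bonds form. It had 355 to 434 CPM in LPD livers (median 404), against 249 to 299.8 CPM in SPD livers (median 278). The diets did not overlap, and the rise was 0.53 ± 0.0641 (log2 fold change ± SE, edgeR quasi-likelihood adjusted p = 1.50e-05). Rpl13a (chr7:45125558-45128761, minus strand), known also for a role outside the ribosome in silencing inflammatory mRNAs, had 366 to 423 CPM in LPD livers (median 402), against 261 to 293 CPM in SPD livers (median 277). Again no LPD liver reached down to an SPD liver, with a rise of 0.52 ± 0.0524 (edgeR adjusted p = 2.79e-06).

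Rpl30, a small protein of the interface between the subunits, had 99.0 to 118 CPM in LPD livers (median 109), against 69.2 to 86.8 CPM in SPD livers (median 77.9). The difference was 0.46 ± 0.0645 on the log2 scale (edgeR adjusted p = 5.45e-05), with no overlap. Rpl28, found in ribosomes of animals and plants but not of budding yeast, had 147 to 191 CPM in LPD livers (median 181), against 121 to 139 CPM in SPD livers (median 124). It too did not overlap, with a difference of 0.46 ± 0.0660 (edgeR adjusted p = 7.77e-05), and its start carries a pyrimidine run as printed above.

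All 4 members of the stalk and its base rose. The stalk recruits the elongation factors, and Rplp0 anchors its Rplp1 and Rplp2 dimers. Rplp0 had 436 to 527 CPM in LPD livers (median 507), against 404 to 463 CPM in SPD livers (median 415), and rose by 0.25 ± 0.0586 (edgeR adjusted p = 0.00355). Only LPD replicate 6 fell within the SPD range. Rplp1 had 171 to 198 CPM in LPD livers (median 186), against 136 to 178 CPM in SPD livers (median 155), and rose by 0.25 ± 0.0691 (edgeR adjusted p = 0.00939), with some overlap. Rplp2 had 67.4 to 77.1 CPM in LPD livers (median 71.9), against 46.6 to 59.9 CPM in SPD livers (median 55.7), with no overlap and a rise of 0.39 ± 0.0613 (edgeR adjusted p = 0.000158). Rpl12, at the stalk base, was low, with 6.38 to 9.04 CPM in LPD livers (median 7.75), against 4.93 to 7.24 CPM in SPD livers (median 6.24), and rose by 0.33 ± 0.118 (edgeR adjusted p = 0.0356). With LPD replicate 1 counted as SPD, only Rplp2 of the 4 was called (edgeR adjusted p = 0.0847 for Rplp0, 0.0692 for Rplp1 and 0.135 for Rpl12), and the Rpl12 call was lost in 10 of the 24 alternatives other than the test beyond 1.5-fold.

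Rpl5 and Rpl11 join 5S ribosomal RNA into the particle that also binds MDM2 and links ribosome assembly to p53. Rpl5 had 22.9 to 30.1 CPM in LPD livers (median 26.5), against 19.8 to 23.0 CPM in SPD livers (median 21.6), and rose by 0.31 ± 0.0636 (edgeR adjusted p = 0.00143), with only 1 LPD liver inside the SPD range. Rpl11 had 186 to 228 CPM in LPD livers (median 217), against 181 to 202 CPM in SPD livers (median 184). Its rise of 0.17 ± 0.0568 (edgeR adjusted p = 0.0264), like that of Rpl36a, was among the smallest called, and it was lost in 7 alternatives beside the test beyond 1.5-fold. Rpl36a had 34.7 to 42.4 CPM in LPD livers (median 39.1), against 31.5 to 37.2 CPM in SPD livers (median 34.7), a rise of 0.17 ± 0.0586 (edgeR adjusted p = 0.0329) with overlap, lost in 10 alternatives beside that test.

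Around the exit tunnel, through which the new chain leaves, 7 of 9 listed members rose. Rpl23a, at the rim where targeting factors dock, had 300.1 to 356 CPM in LPD livers (median 343), against 236 to 294 CPM in SPD livers (median 267). The diets did not overlap, and the rise was 0.34 ± 0.0607 (edgeR adjusted p = 0.000476). The tunnel proteins Rpl39 and Rpl31 were not called. Rpl39 had 37.2 to 45.9 CPM in LPD livers (median 43.0), against 33.1 to 50.5 CPM in SPD livers (median 45.0), with a log2 fold change of -0.02 ± 0.0882, and the LPD range lay inside the SPD range. Rpl31 had 83.0 to 98.3 CPM in LPD livers (median 91.3), against 74.3 to 90.9 CPM in SPD livers (median 81.8), with a value of 0.15 ± 0.0604 that missed the threshold (edgeR adjusted p = 0.0587) and was called in 5 alternatives.

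Of the large subunit genes, 3 more were not called, besides Rpl22l1 and Rpl7l1, which are described with the paralogs. Rpl41, which encodes the shortest of the ribosomal proteins, had 219 to 249.7 CPM in LPD livers (median 236), against 188 to 255 CPM in SPD livers (median 239), a value of 0.03 ± 0.0716. Rpl29, a surface protein that is not essential in mice, had 132 to 153 CPM in LPD livers (median 143), against 120.3 to 147 CPM in SPD livers (median 139), a value of 0.06 ± 0.0566. For Rpl38, whose loss in mice alters the pattern of the vertebrae, LPD livers had 36.2 to 38.4 CPM (median 37.3) and SPD livers 24.3 to 38.5 CPM (median 37.4), a value of 0.10 ± 0.0900. In each of the 3, SPD replicate 3 was the lowest of the 12 livers and most values of the diets overlapped. Without that liver the values were -0.02 for Rpl41, 0.02 for Rpl29 and 0.02 for Rpl38.

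In the small subunit the highest fold among called genes was that of Rps12 (chr10:23785183-23787275, minus strand, GRCm38), a protein of the beak. It had 75.3 to 102 CPM in LPD livers (median 85.4), against 53.6 to 73.1 CPM in SPD livers (median 62.0). The diets did not overlap, and the rise was 0.44 ± 0.0848 (edgeR adjusted p = 0.000781), although it was not called with LPD replicate 1, its highest liver, counted as SPD (edgeR adjusted p = 0.119). Rps26, which lies along the mRNA at its exit and contacts bases before the start codon, had 179 to 215 CPM in LPD livers (median 209.7), against 144 to 161 CPM in SPD livers (median 155). It did not overlap either, with a rise of 0.42 ± 0.0553 (edgeR adjusted p = 3.55e-05).

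Rps25, known to be needed for initiation at some viral internal entry sites, had 179.9 to 202 CPM in LPD livers (median 196), against 129.7 to 158 CPM in SPD livers (median 149). Its rise was 0.42 ± 0.0590 (edgeR adjusted p = 6.36e-05) with no overlap. Rps6, the protein that S6 kinases phosphorylate downstream of mTORC1, had 306 to 378 CPM in LPD livers (median 341), against 242 to 293 CPM in SPD livers (median 263). All LPD livers lay above all SPD livers, with a rise of 0.37 ± 0.0651 (edgeR adjusted p = 0.000369) that was not called with LPD replicate 1 counted as SPD (edgeR adjusted p = 0.0571). Rpsa, which is also known as the laminin receptor, had 394 to 507 CPM in LPD livers (median 479), against 332 to 407 CPM in SPD livers (median 369). Its rise was 0.35 ± 0.0670 (edgeR adjusted p = 0.000817), and LPD replicate 6 alone lay inside the SPD range.

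The smallest called rises of the small subunit were those of Rps3 and Rps24. Rps3, at the mRNA entry and known also as a DNA repair protein, had 244 to 295 CPM in LPD livers (median 279), against 220.4 to 255 CPM in SPD livers (median 239.5), a rise of 0.20 ± 0.0598 (edgeR adjusted p = 0.0156) with overlap. Rps24, needed for maturation of 18S ribosomal RNA, had 229 to 274 CPM in LPD livers (median 261), against 207 to 250.5 CPM in SPD livers (median 222), a rise of 0.20 ± 0.0605 (edgeR adjusted p = 0.0148) with overlap. Neither was called with LPD replicate 1 counted as SPD (edgeR adjusted p = 0.210 and 0.158). Rps15, whose tail reaches the decoding centre, had 221 to 284 CPM in LPD livers (median 276), against 203 to 253 CPM in SPD livers (median 231). Its rise of 0.22 ± 0.0683 (edgeR adjusted p = 0.0173) was not called with LPD replicate 1 counted as SPD (edgeR adjusted p = 0.159) or without LPD replicates 2 and 5 (0.0579).

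Rps2, at the mRNA entry beside Rps3, had the highest level per length of all members and was not called. It had 781 to 939.6 CPM in LPD livers (median 854), against 716 to 923 CPM in SPD livers (median 813), with a log2 fold change of 0.08 ± 0.0695 (edgeR adjusted p = 0.417), and most livers of the diets overlapped. Rps13, known to regulate splicing of its own pre-mRNA in human cells, had 41.7 to 56.5 CPM in LPD livers (median 49.6), against 38.2 to 53.8 CPM in SPD livers (median 41.7). Its value of 0.14 ± 0.0940 was not called. Of the alternatives, 2 called it: with the counts of pseudogene rows added (edgeR adjusted p = 0.00994) and within the SP1 and LP4 libraries alone (0.0432). Rps29, a zinc-binding protein of the head, had 42.3 to 60.1 CPM in LPD livers (median 51.7), against 31.1 to 53.3 CPM in SPD livers (median 50.5), a value of 0.17 ± 0.127. The pseudogene row Rps12l1 had 0 to 2.40 CPM in LPD livers and 0 to 3.46 CPM in SPD livers, with 3 LPD and 2 SPD livers at 0, and its value of -0.85 ± 0.930 was not called.

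Grouped by place in the ribosome, calls were spread over both subunits. All 3 listed proteins near the peptidyl transferase centre rose, as did all 4 at the mRNA exit, both at the decoding centre, all 3 of the beak and 9 of 10 of the head, which shares members with other groups. Median log2 fold changes were 0.31 near the peptidyl transferase centre, 0.38 at the mRNA exit, 0.28 at the decoding centre, 0.35 in the beak and 0.32 in the head. They were 0.29 in the stalk, 0.24 in the 5S particle, 0.22 around the exit tunnel and 0.14 at the mRNA entry, where 1 of 2 rose. With LPD replicate 1 counted as SPD, calls were fewer in all but 1 of these groups: 3 of 3 near the peptidyl transferase centre, 3 of 4 at the mRNA exit, 0 of 2 at the decoding centre, 1 of 3 in the beak, 5 of 10 in the head, 1 of 4 in the stalk, 1 of 2 in the 5S particle, 4 of 9 around the exit tunnel and 0 of 2 at the mRNA entry. These groups are small, and no difference between them was tested.

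Several members have a close relative elsewhere in the genome, and 2 of 4 tested pairs differed in their ratio between diets. Rps27l (chr9:66946086-66949516, plus strand, GRCm38), a paralog of Rps27 (chr3:90212522-90213651, minus strand) that differs from it by a few residues and is known as a p53 target, was the only member that fell. It had 95.3 to 108 CPM in LPD livers (median 104), against 94.7 to 133 CPM in SPD livers (median 124). The diets overlapped, since SPD replicates 3 and 4 were as low as LPD livers, and the fall was -0.20 ± 0.0784 (edgeR adjusted p = 0.0491). That call stood at the threshold and was lost in 16 of the 24 alternatives other than the test beyond 1.5-fold, with adjusted p-values from 0.00625 to 0.416 over those 24 alternatives. Rps27 had 67.8 to 86.2 CPM in LPD livers (median 76.8), against 47.5 to 62.4 CPM in SPD livers (median 59.9). It rose by 0.42 ± 0.0721 (edgeR adjusted p = 0.000327), with no overlap.

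The ratio of the pair separated the diets where Rps27l alone did not. Per kilobase of deposited gene length, the ratio of Rps27l to Rps27 was 0.750 to 0.849 in LPD livers (mean 0.802 ± 0.0386, SD, n = 6), against 1.12 to 1.33 in SPD livers (1.23 ± 0.0729, SD, n = 6). The difference of the mean log2 ratios was -0.62, and an exact two-sided permutation test over all 924 labelings gave p = 0.00216, the smallest it can give (0.00866 adjusted over 4 ratios). The ratio was lower in 6 of 6 LPD livers. It was below 1 in every LPD liver and above 1 in every SPD liver, a crossing that depends on the deposited lengths. Every Rps27 value in the deposited table had a fractional part in all 12 libraries, as estimated counts can have where reads are split between genes, while every Rps27l value was whole.

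Rpl7l1, a relative of Rpl7 with a known role in ribosome assembly, had 58.3 to 71.1 CPM in LPD livers (median 61.4), against 59.4 to 67.7 CPM in SPD livers (median 64.8), a value of -0.02 ± 0.0593. Rpl7 had 333 to 382 CPM in LPD livers (median 368), against 299 to 331 CPM in SPD livers (median 302), and rose by 0.25 ± 0.0507 (edgeR adjusted p = 0.00114) with no overlap. The Rpl7l1 to Rpl7 ratio per kilobase was 0.0555 ± 0.00334 in LPD and 0.0670 ± 0.00491 in SPD (SD, n = 6 each; exact permutation p = 0.00433, adjusted p = 0.00866), with overlap.

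Rpl22l1 is the paralog of Rpl22, whose product represses it in mice. It had 23.4 to 28.3 CPM in LPD livers (median 26.3), against 17.8 to 27.6 CPM in SPD livers (median 23.0), a value of 0.18 ± 0.0912 that was not called. Only 1 alternative called it, that without SPD replicate 6 (edgeR adjusted p = 0.0366). Rpl22 had 94.3 to 114 CPM in LPD livers (median 106), against 74.9 to 92.5 CPM in SPD livers (median 81.7), and rose by 0.35 ± 0.0639 (edgeR adjusted p = 0.000575) with no overlap. Their ratio per kilobase was 0.915 ± 0.120 in LPD and 1.02 ± 0.114 in SPD (SD, n = 6 each; exact permutation p = 0.156, adjusted p = 0.208).

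Rps4l, a transcribed pseudogene row, had 9.73 to 18.9 CPM in LPD livers (median 15.0), against 9.95 to 17.1 CPM in SPD livers (median 13.2), a value of 0.17 ± 0.170. Its parent Rps4x, on the X chromosome, had 274 to 330.0 CPM in LPD livers (median 321), against 244 to 276 CPM in SPD livers (median 259.8), and rose by 0.27 ± 0.0561 (edgeR adjusted p = 0.00152). This rise was not called with LPD replicate 1 counted as SPD (edgeR adjusted p = 0.0618). The ratio of Rps4l to Rps4x per kilobase was 0.0343 ± 0.00902 in LPD and 0.0368 ± 0.00660 in SPD (SD, n = 6 each; exact permutation p = 0.528, adjusted p = 0.528). Tissue-restricted paralogs were at or near the floor: Rpl3l of striated muscle, and Rpl10l and Rpl39l of the male germ line, were among 7 members too low to test, which held at most 16.95 counts each over all 12 libraries.

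**Figure D4:**
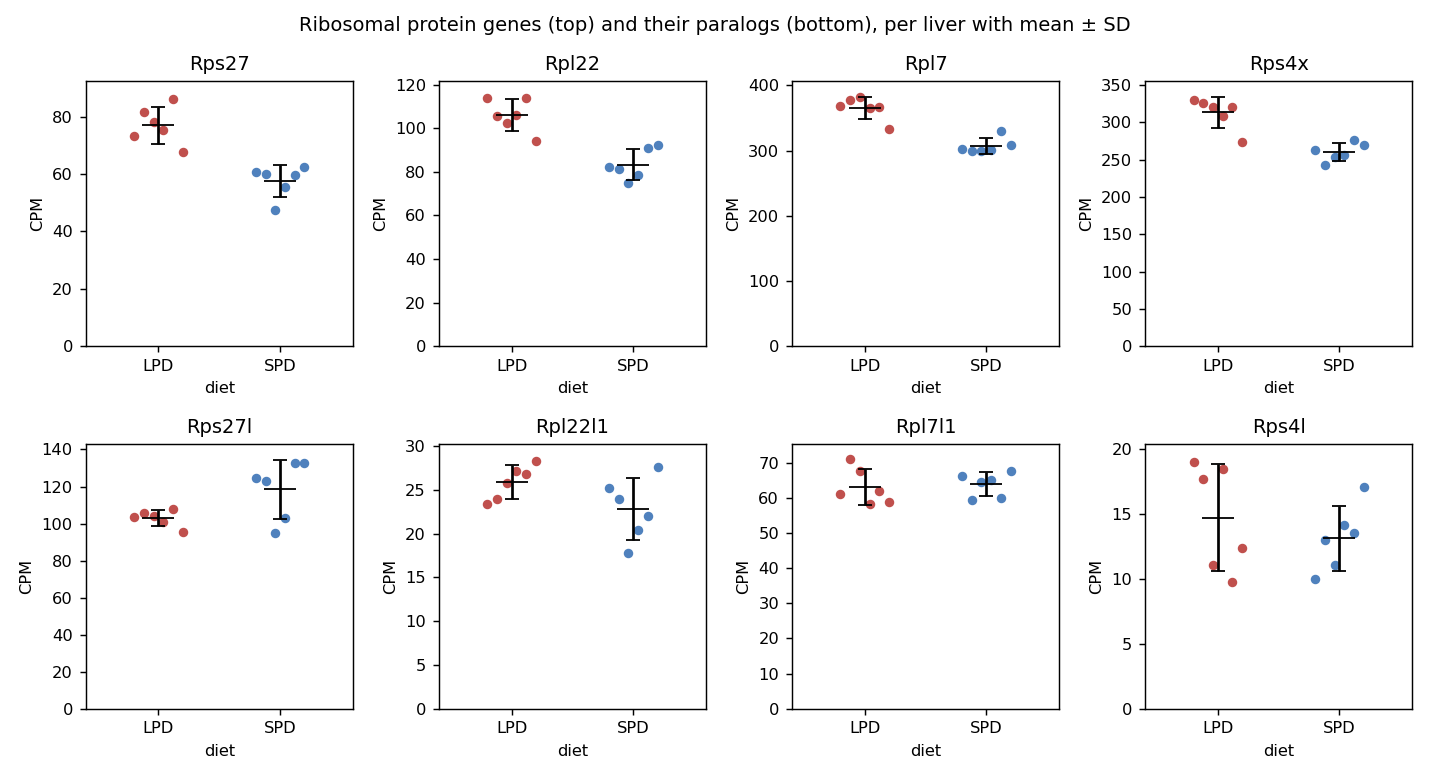
CPM of 4 ribosomal protein genes (top) and their paralogs (bottom) in each liver by diet, with mean ± SD. Rps27, Rpl22 and Rpl7 have every LPD liver above every SPD liver, while each paralog in the lower row overlaps between diets.

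Levels of different genes are set side by side only per kilobase of the deposited gene length, which joins all exons of a gene and can be much longer than the mRNA. On this scale Rps2 was highest, at 886 ± 63.1 CPM per kb in LPD and 841 ± 73.6 in SPD (SD, n = 6 each). Next came Rpl23a, at 602 ± 36.8 CPM per kb in LPD and 476 ± 33.5 in SPD, and Rps15, at 536 ± 47.7 in LPD and 459 ± 31.6 in SPD. Rpl41 had 462 ± 23.6 CPM per kb in LPD and 452 ± 50.2 in SPD. The level was near the bottom for Rpl12, at 6.17 ± 0.722 CPM per kb in LPD and 4.91 ± 0.782 in SPD, and for Rpl5, at 13.0 ± 1.16 in LPD and 10.5 ± 0.525 in SPD. Deposited values had a fractional part in 10 libraries for Rpl12 and in 12 for Rpl5. Whether reads of these genes were shared with other rows is not known, so their levels may be understated. Some lengths make low levels on their own, as with 5130 bases for Rps15a and 3706 for Rps20. Ranking by CPM without length instead left 3 of the 10 highest members in common.

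Among the 41 tested members with the higher levels per kb, 39 rose, with a median log2 fold change of 0.27, and among the 41 with the lower levels 30 rose, with a median of 0.22. Across the 82 genes, which share all 12 libraries, Spearman's rho of the log2 fold change was 0.12 with the level per kb and 0.21 with the gene length. Members with a small nucleolar RNA gene inside them, on the same strand, numbered 30, and 27 of these rose with a median of 0.32, beside 42 of 52 with none inside and a median of 0.25. Rpl13a, which holds 4 such genes, and Rpl3, which holds 2, had the highest folds of the large subunit, and Rpl4, with 5, rose by 0.32 ± 0.0518 (edgeR adjusted p = 0.000211). Rpl17 and Rpl7a, with 3 each, rose by less, 0.18 ± 0.0596 and 0.19 ± 0.0535 (edgeR adjusted p = 0.0265 and 0.00941). Rpl28, also among the highest folds of the large subunit, holds 0. Calls with LPD replicate 1 counted as SPD numbered 21 of 41 at the higher levels and 11 of 41 at the lower, and 16 of 30 with and 16 of 52 without such a gene.

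Ribosomal protein genes have many processed copies, so reads can be split between rows. In addition to the members, the table held 322 pseudogene rows named after them with -ps, whose counts came to 6.08% ± 0.190 of the members' counts in LPD libraries and 5.99% ± 0.187 in SPD libraries (SD, n = 6 each). For 3 members a single such row held more counts than the gene over all libraries: Rpl10-ps3 had 99163 counts against 46605 for Rpl10, Rps23-ps1 24086 against 18643 for Rps23, and Rpl10a-ps1 21087 against 14683 for Rpl10a. These rows also rose, by 0.26 ± 0.0642, 0.38 ± 0.0656 and 0.37 ± 0.0559 (edgeR adjusted p = 0.00515, 0.000375 and 0.000121). With the counts of pseudogene rows added to their members, 70 of 82 were called higher, Rpl31 and Rps13 being gained and Rpl27 lost. Whole values in every library were found in 14 tested members, of which 11 rose with a median of 0.23. Fractional values in all 12 libraries were found in 33, of which 28 rose with a median of 0.30. These calls numbered 5 of 14 for whole and 14 of 33 for fractional values with LPD replicate 1 counted as SPD.

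Genes that work with these proteins were described by lists taken from textbook knowledge. Their counts stand beside 20.7% of all tested genes called higher and 19.2% called lower. Parts of the cytosolic ribosome outside the naming rule gave 2 rises among 5 tested genes, with a median log2 fold change of 0.20, and 0 with LPD replicate 1 counted as SPD. The small subunit scaffold Rack1 rose by 0.23 ± 0.0540 and Fau, which encodes the small subunit protein eS30 fused to a ubiquitin-like protein, by 0.20 ± 0.0729 (edgeR adjusted p = 0.00355 and 0.0387). Values for Rpl36al (0.08 ± 0.0546) and Rps27rt (0.54 ± 0.249) were not called.

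Elongation factors gave 6 rises and no fall among 9 (66.7% higher), with a median of 0.19. They gave 1 call with LPD replicate 1 counted as SPD. Eef1a1, which brings aminoacyl-tRNA to the ribosome, had 6509 ± 502 CPM in LPD and 4960 ± 119 CPM in SPD (SD, n = 6 each), a rise of 0.39 ± 0.0673, and Eef2, which moves the ribosome along, rose by 0.30 ± 0.0613 (edgeR adjusted p = 0.000324 and 0.00132). Initiation factors gave 18 rises and 1 fall among 36, with a median of 0.14. Eif3a and Eif3c, core subunits of eIF3, rose by 0.42 ± 0.0501 and 0.37 ± 0.0477, while the scaffold Eif4g3 fell by 0.22 ± 0.0622.

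Other RNAs known to begin with a TOP motif gave 18 rises and no fall among 22, or 81.8% against the 20.7% of all tested genes, with a median of 0.26, and 10 calls with LPD replicate 1 counted as SPD. The list shares members with those above. Its noncoding RNAs moved most: Gas5 rose by 1.14 ± 0.0699 and Snhg12, another host of small nucleolar RNAs, by 1.24 ± 0.134. Ribosome biogenesis factors gave 36 rises and no fall among 52 (69.2% higher), with a median of 0.35. Its smallest adjusted p-values belonged to the small subunit maturation factor Tsr1 (0.74 ± 0.0725) and the nucleolar chaperone Nolc1 (0.73 ± 0.0702).

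Mitochondrial ribosomal proteins gave 20 rises and 2 falls among 78, a share of 25.6% higher that is near the 20.7% of all tested genes, with a median of 0.08, and 9 rises and 1 fall with LPD replicate 1 counted as SPD. Mrpl47 rose by 0.74 ± 0.107 and Mrpl3 by 0.30 ± 0.0483, and Mrpl16 fell by 0.21 ± 0.0697 and Mrpl10 by 0.13 ± 0.0501. The difference between mitochondrial and cytosolic ribosomal proteins was not tested. Genes of the control of ribosomal protein synthesis gave 10 rises and 2 falls among 24 (41.7% higher), with a median of 0.14. Larp1, the TOP mRNA binding protein, rose by 0.38 ± 0.0599 and Cnbp, which also binds TOP mRNAs, by 0.30 ± 0.0510, while Mtor, the kinase of mTORC1, fell by 0.35 ± 0.0704 and its inhibitor Tsc2 by 0.17 ± 0.0513. Quality control and recycling genes gave 7 rises and 1 fall among 15 (46.7% higher), with a median of 0.14. Zfp598, a sensor of collided ribosomes, rose by 0.50 ± 0.0677 and Usp10, which removes ubiquitin from stalled small subunits, by 0.42 ± 0.0615, while Eif2ak4, the kinase GCN2 that senses uncharged tRNA, fell by 0.27 ± 0.0861.

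**Figure D5:**
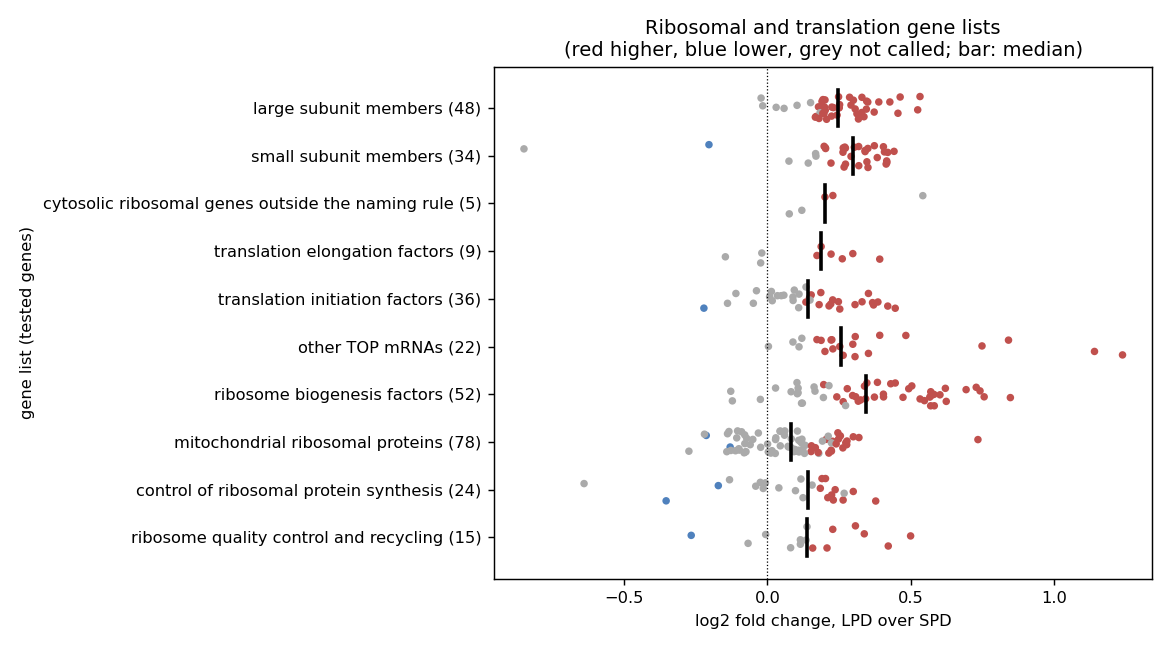
Log2 fold change (LPD over SPD, x axis) of each tested gene in the large and small subunit and in 8 related lists (y axis, number of tested genes in brackets), with red for higher, blue for lower, grey for not called and a bar at the median. Medians are 0.25 and 0.30 for the subunits, 0.35 for ribosome biogenesis and 0.08 for mitochondrial ribosomal proteins.

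Some markers of other liver cells were called as well, and their part in the ribosomal protein values was not tested. Beside these counts, 20.7% of all tested genes were called higher and 19.2% lower, and several counts lie near or under those shares. Summed hepatocyte markers were 65714 to 91935 CPM in LPD and 77233 to 86331 CPM in SPD, the most abundant list in every liver, and 3 of its 7 genes rose and none fell. Lipid-associated macrophage markers were 100.2 to 291 CPM in LPD and 472 to 748 CPM in SPD, with 5 of 7 lower, and cholangiocyte markers 43.3 to 117 CPM in LPD and 156 to 450 CPM in SPD, with 1 of 5 lower; Spp1 is in both lists. Erythroid markers were 228 to 2128 CPM in LPD, the highest in LPD replicate 4, and 923 to 1687 CPM in SPD, with 0 of 5 called. Kupffer cell markers (526 to 739 CPM in LPD, 620 to 929.7 CPM in SPD) gave 1 rise and 2 falls among 8, stellate cell markers (373 to 614 CPM in LPD, 502 to 699.9 CPM in SPD) 3 falls among 8, and sinusoidal endothelial markers (364 to 426 CPM in LPD, 405 to 459 CPM in SPD) 1 rise and 2 falls among 8. T and NK cell markers (1.88 to 6.12 CPM in LPD, 2.60 to 6.32 CPM in SPD) gave no call among 3, B cell markers (3.87 to 7.48 CPM in LPD, 5.38 to 28.2 CPM in SPD) 1 fall among 3, and neutrophil markers (2.71 to 6.73 CPM in LPD, 5.17 to 13.5 CPM in SPD) 1 fall among 4. No list was at 0 in any liver. Without LPD replicates 2 and 5, which had the lowest macrophage and cholangiocyte sums, 60 ribosomal protein genes were called higher, with a median log2 fold change of 0.26.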

How the data were processed

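RNA from 12 livers was sequenced as 1 library per mouse. Per the labels' protocols, RNA was taken up in TRIzol, treated with DNase I and made into libraries with a TruSeq RNA kit, and TopHat, DESeq2 and mm10 are named, without version or use, in the submitters' processing notes. How reads were counted, on which annotation, and how strand and multi-mapping were treated is not given in the sources used here. Each library's column of the deposited table holds expected counts per gene, which the authors left unscaled between libraries. These values were rounded and fitted in R 4.3.3 with edgeR 4.0.16 (filterByExpr with a minimum count of 10 and a minimum total of 15, TMM scaling, quasi-likelihood F test of LPD over SPD with 6 libraries each), and Benjamini-Hochberg adjustment ran over 13768 genes, with calls at an adjusted p under 0.05. The SE was obtained from each fold change and its F statistic (size of the change over root F). The script was tested on simulated data with known answers. Counts are summed over whole genes, with no exon or UTR told apart.

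Gene coordinates came from GENCODE M21 on GRCm38, which matched 89 of 89 members by gene ID, and start windows from RefSeq on GRCm38.p6. Genes were named by rule: every tested member not called or called lower, the 4 largest and 2 smallest rises and the 2 highest levels per kb of each subunit, a fixed set of stalk, 5S particle, signalling and paralog genes, and of each related list the 2 called genes with the smallest adjusted p in each direction. Rpl12, Rpl7, Rpl4, Rpl17, Rpl7a and the pseudogene rows named were picked with their values in view. The members, lists and alternatives were chosen with earlier results of these data known. Alternatives were other scalings and filters, DESeq2 1.42.0, limma 3.58.1 (voom), glmTreat beyond 1.5-fold, the replicate number as a block, single libraries or LPD replicates 2 and 5 left out, LPD replicate 1 counted as SPD, the libraries of codes SP1 and LP4 alone, and pseudogene counts added. Ratios of 4 paralog pairs were tested by exact permutation of the diet labels. No pair of libraries within a diet agreed within sampling noise. The values of 1 gene of a related list are not reported here.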

Additional observations from a re-analysis of the deposited data

Results flagged for a closer look

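In groups of 6 livers, a value was looked at again when its gap to the nearest other liver, divided by the range of its diet, exceeded Dixon's critical value at the usual level. This marked 4 of 88 groups examined, where chance marks about 1 in 20. Of these, 3 concern LPD replicate 6, the LPD liver with the lowest ribosomal protein levels: Rplp0 had 435.8 CPM there, against 501 to 527 CPM in the other LPD livers, Rps15 had 221 CPM, against 266 to 284 CPM, and Rps26 had 179 CPM, against 203 to 215 CPM. The other is SPD replicate 5, where Rplp0 had 463 CPM, against 404 to 425 CPM in the other SPD livers. Across most members LPD replicate 6 was low and SPD replicate 5 high within its diet, and the cause was not tested.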

How the results depend on the processing

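Counts below are of called genes, and those of the lists are not split by direction. The share of all tested genes called in each alternative is not given here. By the quasi-likelihood test of all 12 libraries as titled, 20.7% of tested genes were called higher and 19.2% lower. Tested there were 36 initiation factors, 78 mitochondrial ribosomal proteins, 24 control genes, 15 quality control genes, 9 elongation factors and 5 genes outside the naming rule. The test for changes beyond 1.5-fold called 0 ribosomal protein genes in either subunit, 0 genes of the elongation, initiation, mitochondrial ribosomal, control and quality control lists and of the list outside the naming rule, 2 other TOP RNAs and 1 biogenesis factor. With LPD replicate 1 counted as SPD, 32 ribosomal protein genes were called higher (19 large, 13 small), and calls in the lists were 0 outside the naming rule, 1 elongation factor, 10 other TOP RNAs and 10 mitochondrial ribosomal proteins. Restricted to libraries coded SP1 and LP4, they were 12 initiation factors, 9 mitochondrial ribosomal proteins, 6 control genes and 3 quality control genes. Without LPD replicates 2 and 5 they were 1 outside the naming rule, 3 elongation factors, 13 mitochondrial ribosomal proteins and 5 quality control genes. The list outside the naming rule had 1 call with upper quartile scaling and 1 with no filter. Leaving out single libraries gave 60 to 70 members called higher (33 to 42 large, 27 to 28 small) and 1 to 3 calls outside the naming rule. The log2 ratio of the members' share of counts was 0.32, and 0.21 after leaving out the 10 most abundant genes of each library. It was 0.23 with LPD replicate 1 moved to SPD and 0.42 for codes SP1 and LP4. Without division by length, 3 of the 10 highest members were shared. Signs turned only in uncalled members: Rpl39 (0.12 for codes SP1 and LP4, -0.0867 to 0.0270 with single libraries left out), Rpl41 (-0.0190 to 0.0628 with single libraries left out), Rpl7l1 (0.00372 with LPD replicate 1 moved to SPD, 0.0158 for codes SP1 and LP4, -0.0524 to 0.00924 with single libraries left out) and Rps4l (-0.00622 with LPD replicate 1 moved to SPD). The causes were not tested. Calls of 32 of the 69 risen members held in all 24 alternatives other than the test beyond 1.5-fold. Same-numbered livers share only a number, with correlations of -0.054 to 0.097 between their deviations and 1 of 6 best matched by its own number. With the replicate block 67 members were called higher, Rpl12 and Rpl36a being lost. The 7 untested members had at most 16.95 counts each, and whether reads were shared between genes and their processed copies is not known.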
